A study of Capra hircus with 11 samples.

Results

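The 5 miRNAs described here mark cells of the blood-forming lineages: bta-miR-142-5p and bta-miR-142-3p, the 2 arms of the miR-142 hairpin, with bta-miR-223, bta-miR-150 and bta-miR-342, written below without the bovine prefix of the deposited names. They were chosen by name, as every listed miRNA of these 4 miRNA genes on any arm, and are 5 of the 637 miRNAs listed. They were measured by small RNA sequencing of omental fat, which hangs from the stomach in the abdominal fold, from 11 Alpine goats at peak lactation, 48 ± 2 days after kidding. The 6 feed-deprived goats went without feed for the 48 h before slaughter, and the 5 control goats ate freely over the same time. Goats of both groups had spent 2 weeks on hay and concentrate at 35% forage and 65% concentrate, so the comparison asks what a short and complete loss of intake does to the miRNAs of a fat depot. Each library came from a separate goat. The labels give no replicate numbers, and those used here only name the goats and pair none of them.

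A miRNA is cut from a hairpin precursor, and the strand loaded into an Argonaute protein guides it to messenger RNAs through a short seed near its 5′ end. miR-142 is made in all blood-forming lineages and hardly at all elsewhere. miR-223 is the classical miRNA of neutrophils and monocytes, where it restrains activation of the granulocyte, and platelets carry it too. miR-150 is abundant in mature lymphocytes and targets MYB, and miR-342 is found in lymphocytes and other leukocytes. Fat tissue holds resident macrophages and lymphocytes, and the omentum also has milky spots, small clusters of leukocytes under the mesothelium. Circulating blood left in the vessels adds leukocytes, platelets and red cells.

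RefSeq's goat genes (assembly ARS1.2) include 3 of the 4 miRNA genes. MIR342 lies inside EVL, a gene for an actin regulator of the Ena/VASP family. MIR223 lies between the protein-coding genes VSIG4 and PABPC5.

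The libraries held 16974441 to 25389788 miRNA reads, and a two-sided exact permutation test did not detect a difference in depth between the groups (p = 0.253). Values below are normalised reads, the authors' read counts divided by 1 factor per library, unless RPM are named, which are reads per 1000000 miRNA reads of the library. miRNAs known to be abundant in fat and other mesenchymal tissue made up a large part of every library: the 6 of them in a fixed list (miR-143, miR-145, miR-26a, miR-30a-5p, miR-148a and miR-378) summed to 366310 to 478598 RPM in feed-deprived goats and 408739 to 493159 in controls. The liver miRNA miR-122 reached 4.32 RPM at most in feed-deprived goats and 7.73 in controls, too few reads for the test. Fat has no defining miRNA, so these values do not identify the tissue by themselves.

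miR-142-5p was higher in feed-deprived than in control goats, with a call close to its threshold. miR-223 had the largest fold change of the 5 without passing the test, and miR-150 and miR-342 had small differences that did not pass. All 5 log2 fold changes of feed-deprived over control were positive, with a median of 0.79 against 0.0040 over the 360 miRNAs tested, of which 50.8% were positive, though miR-342 was negative with upper-quartile factors. The test passed 1 of the 5 (limma, Benjamini-Hochberg adjusted p under 0.05 over all 360), where 0.833% of all tested miRNAs were called higher and 0 were called lower. On the recovered reads edgeR and DESeq2 also called 0 lower and voom called 1. At an unadjusted p under 0.05, limma had 3 of the 5 among the higher miRNAs, against 30 of all tested (8.33%), and 0 of the 5 among the lower ones, against 12 (3.33%). The whole tissue was sequenced, so more cells of a type and more of the miRNA in each cell cannot be told apart.

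**Figure D1:**
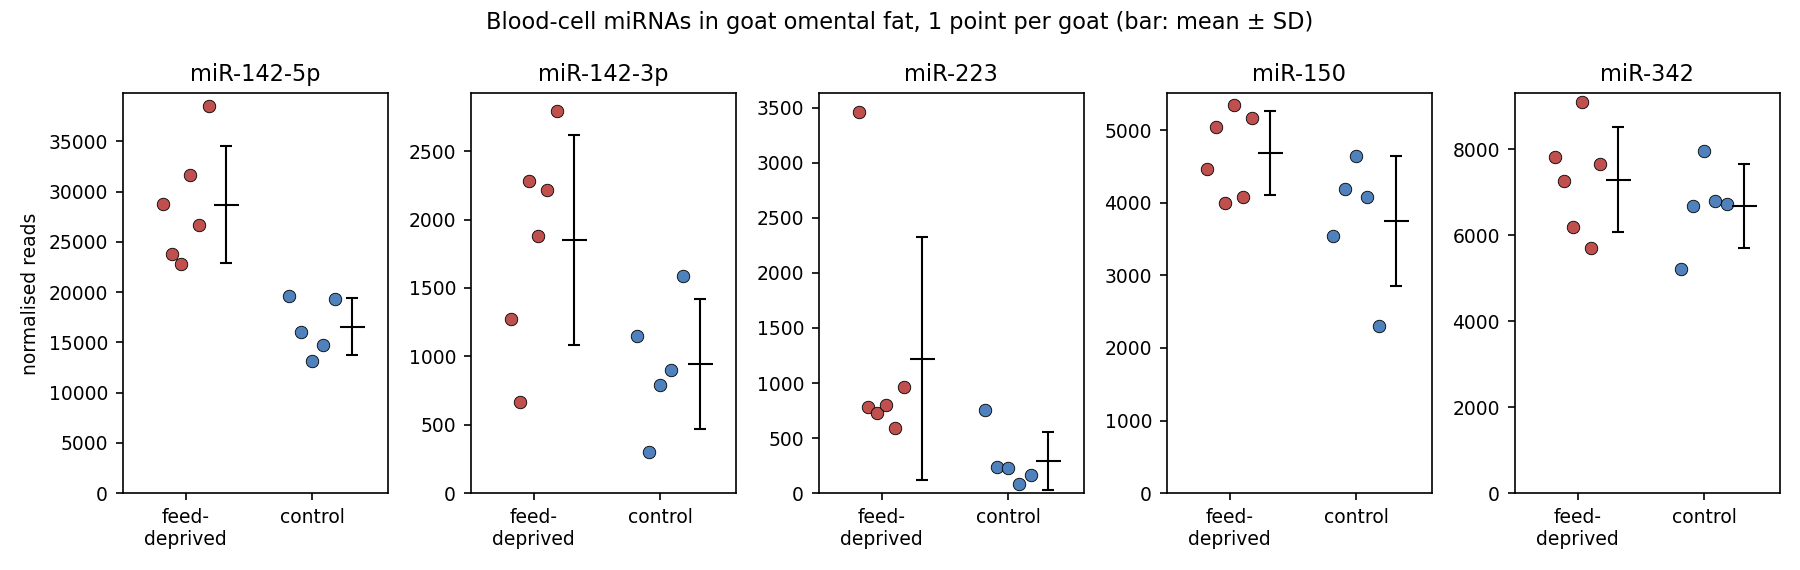
Normalised reads of the 5 blood-cell miRNAs, 1 point per goat, feed-deprived goats (n = 6) left of controls (n = 5), with the mean ± SD as a bar beside the points. For miR-142-5p the feed-deprived goats, from 22774 normalised reads upward, lie above every control, the highest of which is 19619.7. For the other 4 the groups overlap.

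The 5 miRNAs had the same order of abundance in both groups. miR-142-5p came first, with a mean of 1472 ± 288 RPM in feed-deprived goats (SD, n = 6) and 769 ± 190 in controls (SD, n = 5). miR-342 followed with 376 ± 78.6 in feed-deprived goats and 306 ± 43.8 in controls, and miR-150 with 241 ± 35.3 in feed-deprived goats and 169.5 ± 29.3 in controls. miR-142-5p exceeded miR-342, miR-342 exceeded miR-150 and miR-150 exceeded miR-142-3p in all 11 libraries. The last step did not hold everywhere, since miR-142-3p exceeded miR-223 in 4 of 6 feed-deprived and 5 of 5 control libraries. The means of that pair were 92.98 ± 33.3 RPM for miR-142-3p and 68.9 ± 76.4 for miR-223 in feed-deprived goats, and 44.7 ± 26.1 for miR-142-3p and 13.4 ± 11.96 for miR-223 in controls. These neighbours did not differ beyond their spread between goats in the feed-deprived group. Adapter ligation favours some sequences, so this order holds for this protocol and is not molar.

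The 5 together made up 0.179% to 0.297% of the reads in feed-deprived libraries and 0.109% to 0.159% in control libraries. miR-142-5p alone supplied 65.4% ± 2.89 of these reads in feed-deprived goats (SD, n = 6) and 58.4% ± 6.54 in controls (SD, n = 5). miR-342 supplied 16.8% ± 2.18 in feed-deprived goats and 23.9% ± 4.60 in controls.

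miR-142-5p was the only member whose groups did not overlap. It ranged over 22774, 27754 and 38496 normalised reads (lowest, median and highest) in feed-deprived goats, against 19619.7, 16047, 13119, 14708 and 19347 in the 5 controls. Every feed-deprived goat was above every control, which held for 1.67% of the tested miRNAs, all of them higher in feed-deprived goats. The means were 28704 ± 5802 in feed-deprived goats (SD, n = 6) and 16568 ± 2857 in controls (SD, n = 5). The log2 fold change was 0.79 ± 0.164 (SE, 95% interval 0.43 to 1.14, limma adjusted p = 0.037). Its rank by abundance within a library, which needs no scaling between libraries, ran from 39 to 49 in feed-deprived goats and from 50 to 58 in controls. The ratio of miR-142-5p to another tested miRNA of the same library was higher in all feed-deprived than in all control libraries for 68 of 359 partners, and lower for 0. Over all pairs of tested miRNAs, 2.17% of ratios kept the groups apart in either direction.

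The call for miR-142-5p was close to its threshold. Leaving out 1 goat at a time gave log2 fold changes of 0.70 to 0.85 and limma adjusted p-values of 0.029 to 0.088, above the threshold without feed-deprived replicates 1, 4 or 5 or control replicates 2, 3, 4 or 5. With upper-quartile factors the log2 fold change was 0.61 and the limma adjusted p 0.095.

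**Figure D2:**
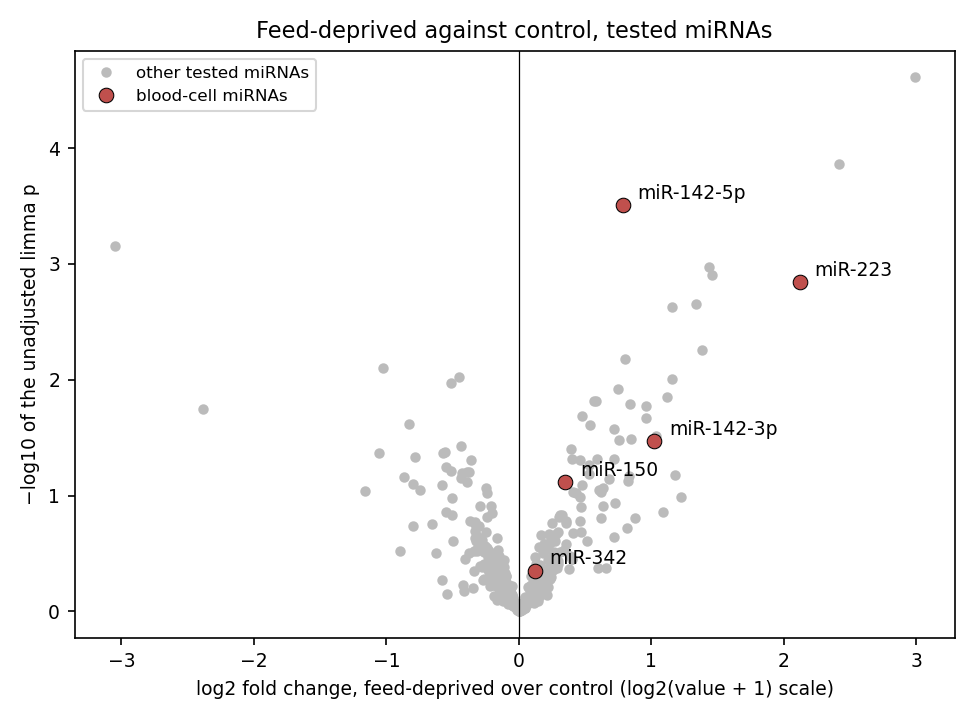
Log2 fold change of feed-deprived over control goats (horizontal) against −log10 of the unadjusted limma p (vertical) for the 360 tested miRNAs, with the 5 blood-cell miRNAs in red. All 5 lie right of 0, miR-142-5p highest among them with a log2 fold change of 0.79 and miR-223 farthest right at 2.12.

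The other arm of the same hairpin varied far more between goats. miR-142-3p stood at 667, 2048 and 2797 normalised reads (lowest, median and highest) in feed-deprived goats, and at 1149.7, 299, 787, 901 and 1586 in the 5 controls. In each group replicate 2 was the low one, and 4 of 6 feed-deprived goats were above all controls. The means were 1853 ± 768 in feed-deprived goats (SD, n = 6) and 945 ± 473 in controls (SD, n = 5). The log2 fold change was 1.02 ± 0.432 (SE, 95% interval 0.091 to 1.95, limma adjusted p = 0.394). It was 0.66 without control replicate 2. The SD between goats within a group was 0.82 on the log2 scale for miR-142-3p, above that of 89.1% of the other tested miRNAs, and 0.27 for miR-142-5p, above that of 18.4%.

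The number of miR-142-3p reads for each miR-142-5p read, a ratio within 1 hairpin, showed the same spread. It was 0.0281 at the lowest, 0.0660 at the median and 0.1003 at the highest in feed-deprived goats, against 0.0586, 0.0187, 0.0601, 0.0613 and 0.0820 in the 5 controls. The log2 difference of 0.24 ± 0.450 (SE, exact permutation p = 0.608, adjusted p = 0.608 over 8 ratios) was smaller than its error, and it was -0.12 without control replicate 2.

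miR-223 had the widest range of the 5. Its feed-deprived goats held 595, 795 and 3458 normalised reads (lowest, median and highest), and the controls 753, 242, 225, 86.2 and 164. Feed-deprived replicate 1 and control replicate 1 stood far above the rest of their groups. The next highest were 963 among feed-deprived goats and 242 among controls, so the other 5 feed-deprived goats all lay above the other 4 controls. The means were 1222 ± 1102 in feed-deprived goats (SD, n = 6) and 294 ± 264 in controls (SD, n = 5). The log2 fold change was 2.12 ± 0.528 (SE, 95% interval 0.98 to 3.26) and did not pass (limma adjusted p = 0.074).

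The call for miR-223 changed when control replicate 1 was left out. Without control replicate 1 the log2 fold change was 2.55 (limma adjusted p = 0.018), and without feed-deprived replicate 1 it was 1.76 (limma adjusted p = 0.088). Without both of these goats, an alternative added after seeing the data, it was 2.19 (limma adjusted p = 0.0038). Over the fits that left out 1 goat the limma adjusted p ran from 0.018 to 0.173, the highest without control replicate 5. DESeq2 on the recovered reads passed it as well (log2 fold change 2.04, DESeq2 adjusted p = 0.0071), whereas edgeR did not (edgeR adjusted p = 0.164). Counting error was small beside these differences: the lowest library, control replicate 4, had 80 reads, which is 4.03 RPM with an exact 95% binomial interval of 3.20 to 5.02.

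**Figure D3:**
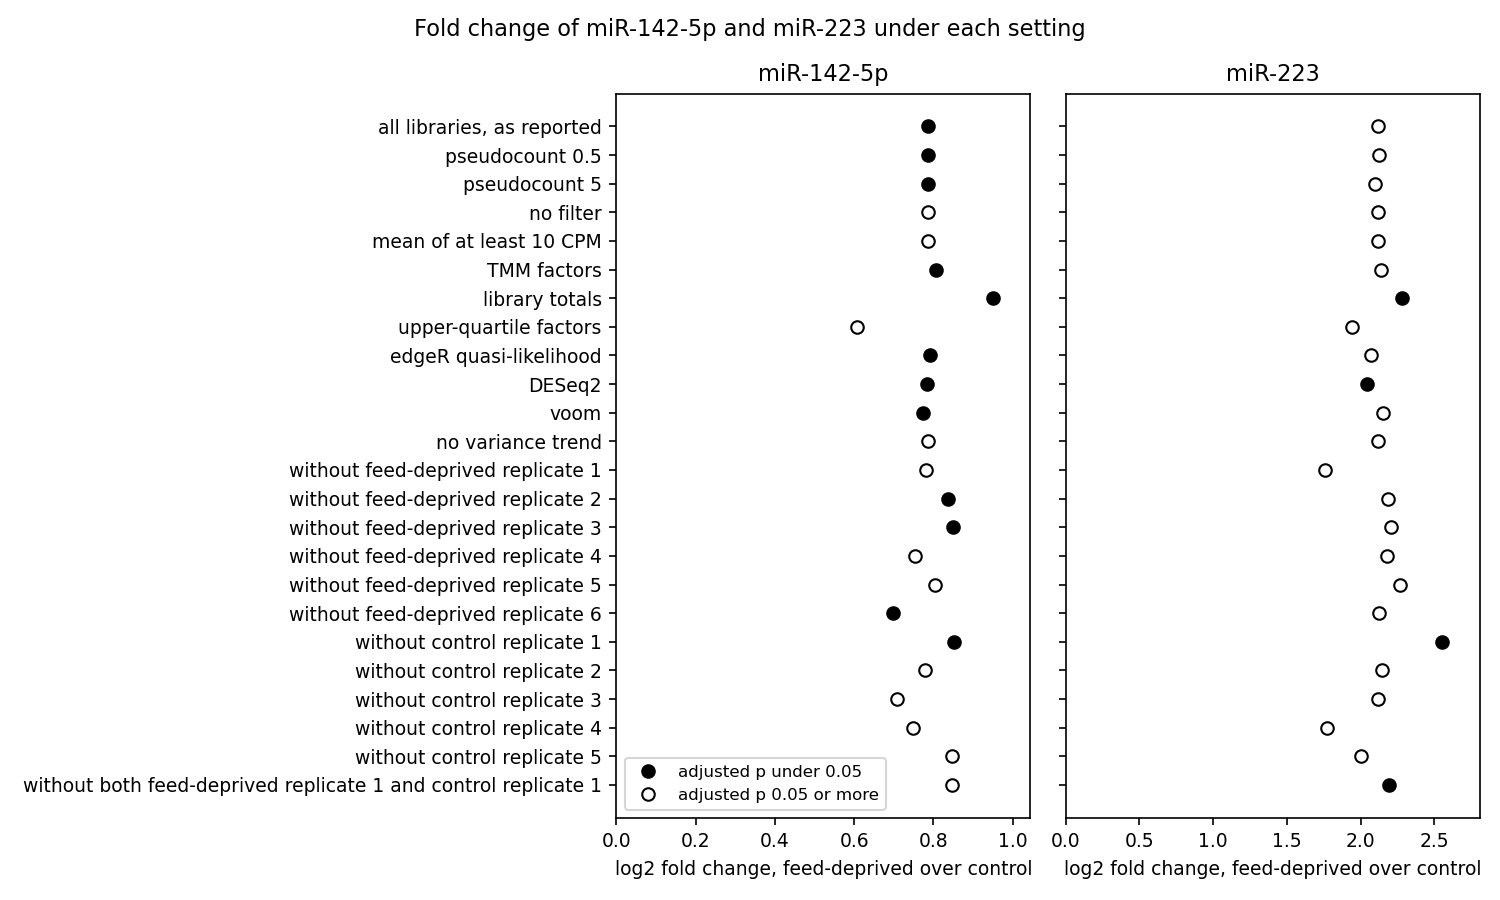
Log2 fold change of miR-142-5p (left) and miR-223 (right) under each setting, with filled points where the adjusted p was under 0.05. The values of miR-142-5p stay between 0.61 and 0.95 and those of miR-223 between 1.76 and 2.55, while the points change between filled and open for both.

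miR-150, typical of mature lymphocytes, had overlapping groups. Feed-deprived goats had 3999, 4754 and 5352 normalised reads (lowest, median and highest), and controls 3537, 4196, 4645, 4073 and 2307. Control replicate 5 was low, and 3 of 6 feed-deprived goats were above all controls. The means were 4685 ± 583 in feed-deprived goats (SD, n = 6) and 3751 ± 899 in controls (SD, n = 5). The log2 fold change was 0.35 ± 0.183 (SE, 95% interval -0.043 to 0.74, limma adjusted p = 0.486), and leaving out control replicate 5 gave 0.19.

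miR-342 had the smallest difference of the 5. Its feed-deprived goats held 5696, 7459 and 9103 normalised reads (lowest, median and highest), against 5211, 6673, 7962, 6806 and 6736 in the controls. Of the 6 feed-deprived goats, 1 was above all controls. The means were 7287 ± 1220 in feed-deprived goats (SD, n = 6) and 6678 ± 977 in controls (SD, n = 5). The log2 fold change was 0.12 ± 0.155 (SE, 95% interval -0.21 to 0.46, limma adjusted p = 0.872). With upper-quartile factors it was -0.058, where the median of all tested miRNAs was -0.17.

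Members were then set against each other within each library, which removes the scaling between libraries. miR-223 and each arm of miR-142 were set over miR-150 and over miR-342, miR-142-3p over miR-142-5p, and miR-150 over miR-342. Only the ratio of miR-223 to miR-150 set a myeloid over a lymphocyte miRNA. miR-142 is made in all blood-forming lineages, and miR-342 is found in lymphocytes and other leukocytes. There were 8 ratios, tested by exact two-sided permutation over the 462 splits of 6 and 5 goats and adjusted over the 8. None passed at an adjusted p under 0.05, 3 had an unadjusted p under 0.05, and in all 8 the feed-deprived mean was the higher one. The ratios share members, so these 8 are not independent.

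Of miR-223 to miR-150, feed-deprived libraries had ratios of 0.146, 0.169 and 0.775 (lowest, median and highest), and controls 0.213, 0.0579, 0.0487, 0.0214 and 0.0716. Apart from replicate 1 of each group, every feed-deprived ratio was higher than every control ratio, and these 5 lay close together, from 0.146 to 0.186. The mean log2 ratio was -2.24 ± 0.929 in feed-deprived goats (SD, n = 6) and -4.01 ± 1.19 in controls (SD, n = 5). The difference was 1.77 ± 0.639 (SE, exact permutation p = 0.019, adjusted p = 0.052).

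miR-223 to miR-342 gave ratios of 0.0885, 0.113 and 0.443 (lowest, median and highest) in feed-deprived libraries, against 0.145, 0.0364, 0.0284, 0.0128 and 0.0245 in controls. The difference on the log2 scale was 1.998 ± 0.646 (SE, exact permutation p = 0.019, adjusted p = 0.052). Without control replicate 1, the difference for miR-223 was 2.21 over miR-150 and 2.52 over miR-342. Both passed (exact permutation p = 0.0048, the smallest those splits allow, adjusted p = 0.013). No other control reached the feed-deprived range of either ratio, so leaving that goat out fixed this p.

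miR-142-5p was set over miR-342 and over miR-150. Its ratio to miR-342 was 3.27, 3.68 and 5.02 (lowest, median and highest) in feed-deprived libraries, and 3.76, 2.40, 1.65, 2.16 and 2.87 in controls, so control replicate 1 alone reached the feed-deprived range. The log2 difference was 0.67 ± 0.212 (SE, exact permutation p = 0.013, adjusted p = 0.052). Without control replicate 1 it was 0.82 and passed (exact permutation adjusted p = 0.013), at the smallest p those splits allow, since no overlap was left. Its ratio to miR-150 was 4.71, 6.19 and 7.44 in feed-deprived libraries, against 5.55, 3.82, 2.82, 3.61 and 8.38 in controls, where replicate 5 was above every feed-deprived goat. That log2 difference was 0.44 ± 0.267 (SE, exact permutation p = 0.134, adjusted p = 0.215). It was 0.66 without control replicate 5 (exact permutation p = 0.0095, adjusted p = 0.067) and 0.27 without control replicate 3 (exact permutation adjusted p = 0.400).

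miR-142-3p had a log2 difference of 0.67 ± 0.609 over miR-150 (SE, exact permutation p = 0.307, adjusted p = 0.351) and 0.90 ± 0.545 over miR-342 (exact permutation p = 0.130, adjusted p = 0.215). Without control replicate 2 they were 0.26 over miR-150 and 0.53 over miR-342, and without control replicate 5 the first was 1.07. The ratio of miR-150 to miR-342 was 0.571, 0.660 and 0.717 (lowest, median and highest) in feed-deprived libraries, and 0.679, 0.629, 0.583, 0.598 and 0.343 in controls. Control replicate 5, the goat with little miR-150, was the low one. The log2 difference was 0.23 ± 0.170 (SE, exact permutation p = 0.171, adjusted p = 0.228), and 0.057 without control replicate 5.

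**Figure D4:**
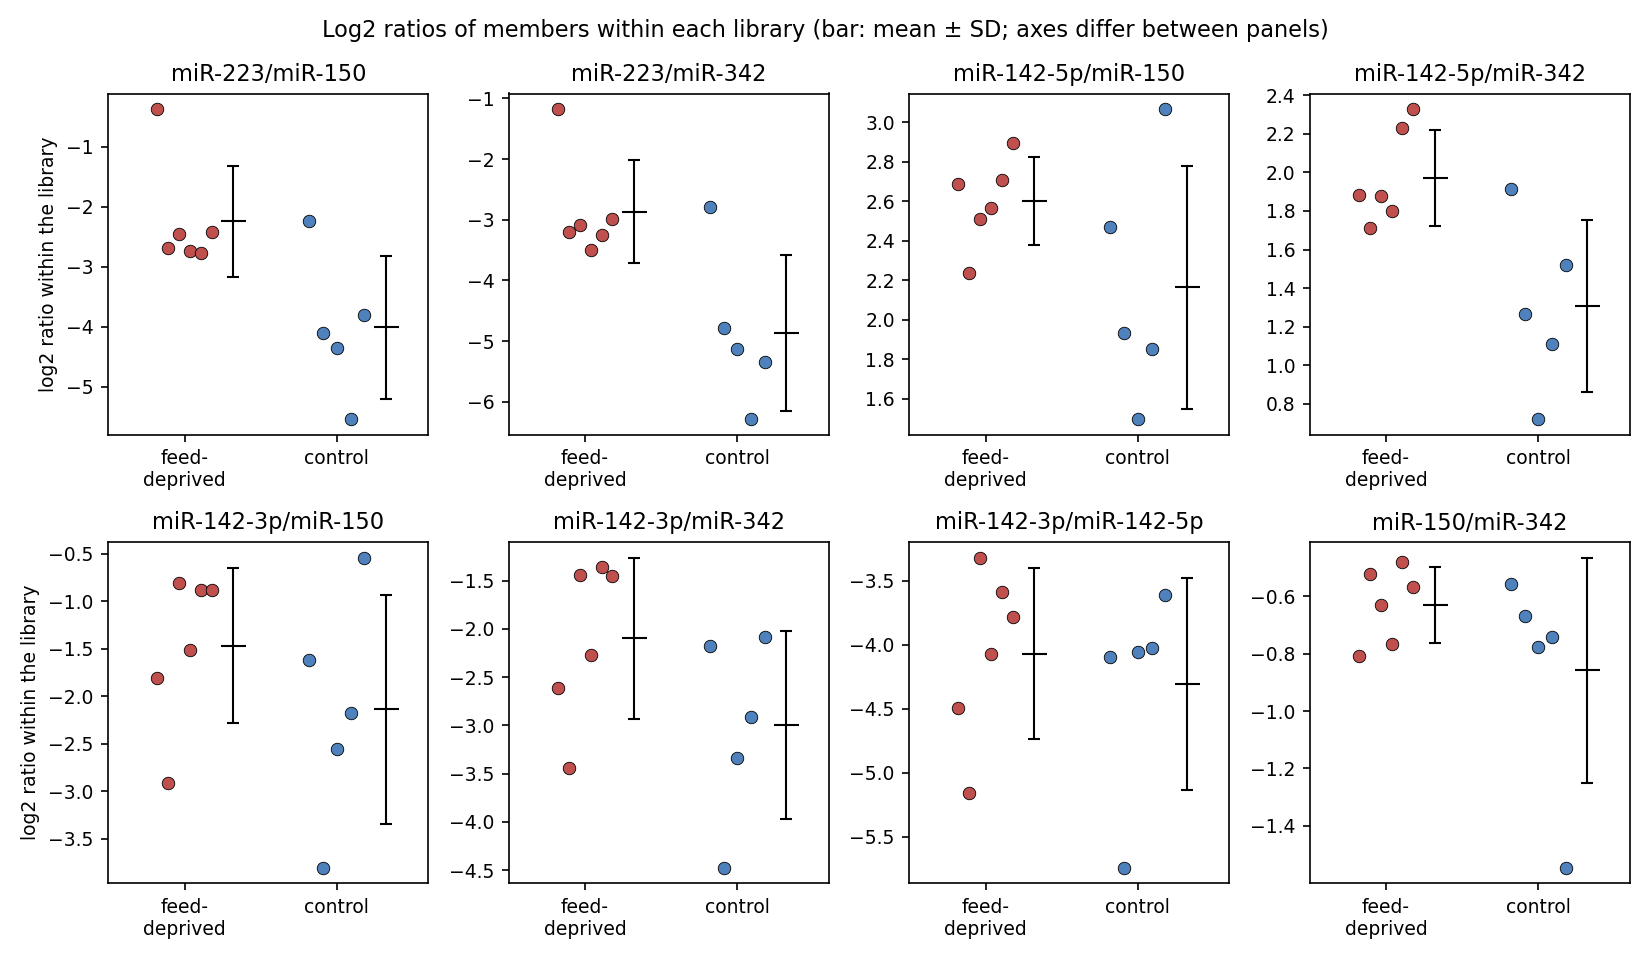
Log2 ratio of 2 blood-cell miRNAs within each library, 1 point per goat, feed-deprived left of control in each panel, with the mean ± SD as a bar; the axes differ between panels. In the panels of miR-223 over miR-150 and over miR-342, replicate 1 is the highest goat of each group. The remaining feed-deprived goats lie above the remaining controls, which spread widely down to replicate 4.

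No pair of the 5 miRNAs passed a test of moving together from goat to goat within a group. Over 11 libraries with group means removed, 10 pairs were compared on the log2 scale, and 0 had an adjusted permutation p under 0.05. The r largest in size was negative, -0.50 for miR-142-3p with miR-150 (permutation p = 0.1735, adjusted p = 0.620), with rho = -0.51 (permutation p = 0.1415, adjusted p = 0.472). It was -0.56 without replicate 2 of each group. The highest positive r was that of miR-150 with miR-342, at Pearson's r = 0.46 (permutation p = 0.165, adjusted p = 0.620) and Spearman's rho = 0.58 (permutation p = 0.068, adjusted p = 0.472). Without feed-deprived replicate 3 and control replicate 5, the goats farthest from the median of miR-150, r was 0.89. The 2 arms of miR-142 had r = 0.45 (permutation p = 0.186, adjusted p = 0.620) and rho = 0.54 (permutation p = 0.119, adjusted p = 0.472), and r = 0.39 without feed-deprived replicate 6 and control replicate 3. miR-223 with miR-150 had r = 0.017 (permutation p = 0.965, adjusted p = 0.965) and rho = 0.28 (permutation p = 0.443, adjusted p = 0.724), and r = 0.25 without replicate 1 of each group. Normalised reads of 1 library share its factor, so an error in it moves all members of that library together. Such an error weighs more on r where members vary little. The SD within groups on the log2 scale was 0.30 for miR-150 and 0.23 for miR-342, against 1.02 for miR-223. Its part in these r was not tested.

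Among the 359 other tested miRNAs, the one whose goat-to-goat pattern was most like miR-142-3p was miR-34a, a miRNA induced by p53. The likeness is given as a description, since the partner was picked as the closest. Over the 11 libraries with group means removed r was 0.97 and rho 0.95, and r was 0.95 without replicate 2 of each group, whereas miR-142-5p, from the same hairpin, came at place 54 of 359. miR-21-3p, the minor arm of miR-21, followed miR-34a with r = 0.90, and the sparse miR-12041, at a mean of 0.594 RPM, with r = 0.87. Without replicate 2 of each group r was 0.77 for miR-21-3p and 0.62 for miR-12041. miR-34a stood at 517 to 1004 normalised reads in feed-deprived goats and 448 to 1449 in controls, lowest in replicate 2 of both groups, as miR-142-3p was. In the comparison of feeding it had -0.23 ± 0.291 on the log2 scale (SE, limma adjusted p = 0.872).

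Set over miR-34a, which was chosen after its values were seen, miR-142-3p no longer overlapped between the groups. The ratio was 1.29, 2.17 and 2.85 (lowest, median and highest) in feed-deprived libraries, against 0.668 to 1.09 with a median of 0.830 in controls. Among its 359 partners this held for 1 more, miR-2285bb, so that miR-142-3p kept the groups apart over 0.557% of partners. The matching share was 11.4% for miR-223, higher in feed-deprived goats over 41 partners. miR-150 was higher over 6 partners and lower over 2, and miR-342 higher over 2 and lower over 4. Over all pairs of tested miRNAs 2.17% of ratios kept the groups apart in either direction. The share of miR-142-3p was below that, and those of miR-150 and miR-342 were near it. No test was made of these counts.

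**Figure D5:**
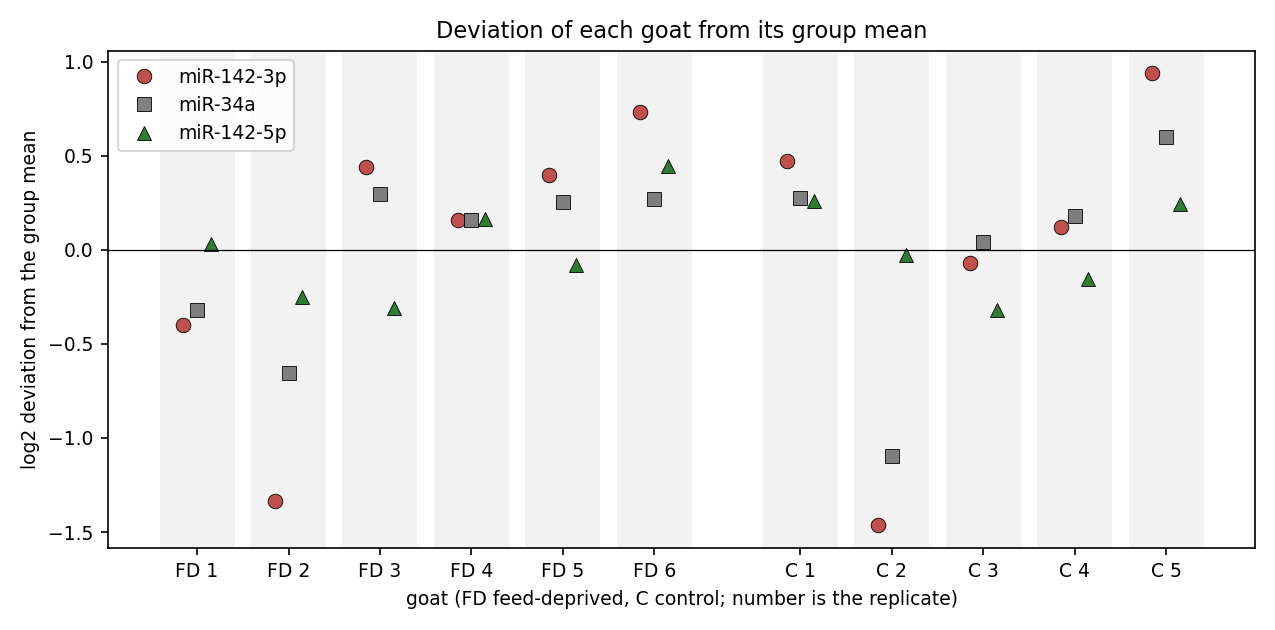
Deviation of each goat from the mean of its group, in log2 units, for miR-142-3p (circles), miR-34a (squares) and miR-142-5p (triangles), with the 6 feed-deprived goats (FD) left of the 5 controls (C). miR-142-3p and miR-34a are both far below their means in replicate 2 of each group, while miR-142-5p stays within 0.45 of its mean in every goat.

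The closest patterns to the other members were looser. miR-223 was most like miR-222 (r = 0.84, rho = 0.58), but without replicate 1 of each group r was 0.25, so that likeness rested on those goats. miR-222 stood at 8090.4 normalised reads in feed-deprived replicate 1 and 1926 to 4134 in the other 5, and at 6056 in control replicate 1 and 1728 to 2846 in the other 4. Next to it came miR-2356 (r = 0.77, and 0.063 without those goats) and miR-7857-3p (r = 0.76, and 0.66 without). miR-150 was most like 3 members of the ruminant miR-2285 family, miR-2285co (r = 0.88), miR-2285ce (r = 0.85) and miR-2285n (r = 0.84), all at 7.04 RPM or fewer on average. Without feed-deprived replicate 3 and control replicate 5 r was 0.66 for miR-2285co, 0.51 for miR-2285ce and 0.699 for miR-2285n. miR-342 was most like miR-369-5p (r = 0.76), miR-543 (r = 0.73) and miR-411c-5p (r = 0.68), 3 miRNAs of the imprinted DLK1-DIO3 region. miR-142-5p had no close match, with miR-2474 (r = 0.66), miR-495 (r = 0.65), also of that region, and miR-148b (r = 0.63) the nearest. Without feed-deprived replicate 6 and control replicate 3, r was 0.45 for miR-2474, 0.84 for miR-495 and 0.55 for miR-148b. These values of r are across 11 libraries with group means removed and carry no p, because each was picked as one of the 3 closest of 359.

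Other miRNAs of blood and of neighbouring cell types did not pass in the same fit. The 4 other leukocyte miRNAs, miR-155, miR-146a, miR-146b and miR-147, had 0 called in either direction and 4 positive log2 fold changes with a median of 0.33. Those with the smallest p were miR-155, which activated immune cells make, at 0.40 on the log2 scale (limma adjusted p = 0.423), miR-147 at 0.46 (0.521) and miR-146b at 0.26 (0.872). In RPM their sum was highest in replicate 1 of each group, the goats with the most miR-223. It was 2355 RPM in feed-deprived replicate 1 against 1506 to 2336 in the other 5, so replicate 5 was close. Control replicate 1 had 2140.3 RPM against 1022 to 1974 in the other 4. The sums were not taken in normalised reads, where the order of goats can differ. The part of these miRNAs in the miR-223 difference was not tested.

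Of 5 red-cell miRNAs none was called and 3 had positive values, miR-144 at 0.85 on the log2 scale (limma adjusted p = 0.394), miR-451 at 0.62 (0.497) and miR-486 at 0.17 (0.938), while miR-16a and miR-16b, which most tissues also make, were at -0.097 each. Positive values numbered 2 of the 5 under upper-quartile scaling and 5 of the 5 under library totals. The summed red-cell level was 12608, 18528 and 28644 RPM (lowest, median and highest) in feed-deprived goats, and 14492, 21571, 17459, 14405 and 14849 in the controls. In RPM feed-deprived replicate 1 had the most of its group, with feed-deprived replicate 2 close at 27078, but control replicate 1 was among the lowest of its own. These sums were not taken in normalised reads either, where the order can differ. The same goat, feed-deprived replicate 1, had the most miR-142-5p of all 11 in RPM (1869), and feed-deprived replicate 6, the next with 1771 RPM, had the lowest red-cell sum of all 11. In normalised reads feed-deprived replicates 6 (38496) and 4 (31681) held more miR-142-5p than feed-deprived replicate 1 (28801). None of the 5 was at 0 in every library, and their part in the results was not tested.

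The lymphoid-linked miR-181a and miR-181b had log2 fold changes of -0.016 and -0.053, with 0 called. Both arms of miR-126, of endothelium and platelets, were at -0.20 (miR-126-3p, limma adjusted p = 0.642) and -0.056 (miR-126-5p). Of 6 fat-abundant miRNAs and 3 of fibroblasts, 0 were called and all 9 had negative values, with medians of -0.15 and -0.085. With library totals, which set the median of all tested miRNAs at 0.16, 3 of the 6 and 2 of the 3 were positive. Of the 4 tested muscle miRNAs 2 had positive values, and of the 3 tested epithelial ones 2. The muscle list summed to 31.1 to 153 RPM in feed-deprived goats and 44.7 to 185 in controls, and the epithelial list to 9.33 to 20.6 in feed-deprived goats and 6.001 to 22.0 in controls.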

How the data were processed

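Small RNA libraries of omental fat were sequenced as single reads on an Illumina sequencer after 13 PCR cycles, per the labels' protocols, with no molecular identifiers mentioned, so counting intervals cover counting error only. The sources used here name no aligner, miRNA database or genome build. Per miRNA and library the authors deposited 1 normalised signal under bovine names, shortened here. In each library 100% of the deposited signal values above 0 came out as whole multiples of 1 step, within 0.001 read, so reads were recovered. The recovered factors were 0.9986 to 1.003 times DESeq2's own.

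Of 629 miRNAs that every library lists, 360 passed filterByExpr of edgeR (minimum count 10). log2(value + 1) was compared with limma (variance trend, robust moderation, two-sided). This scale understates changes of sparse miRNAs. R 4.3.3, limma 3.58.1, edgeR 4.0.16, DESeq2 1.42.0, Python 3.11.15 and numpy 2.4.6 were used. On the recovered reads edgeR called 3 miRNAs, as limma did. The code was tested on simulated data. No 2 libraries were copies (lowest chi-square 632 per degree of freedom over 55 pairs). Correlations used 100000 resamples within groups.

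The members, ratios and lists were chosen with earlier results of these data known. Named beside the members were the 3 closest patterns each and up to 3 of each list by p. Sequences were not analysed here. Alternatives covered pseudocounts of 0.5 and 5, filters, scalings, DESeq2, edgeR, voom and each goat left out.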

Additional observations from a re-analysis of the deposited data

Results flagged for a closer look

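Of 26 sets of values examined, 5 members and 8 ratios in both groups, 6 had 1 goat standing apart from its group. Chance gives about 1 in 20 for values with a normal distribution. Members were examined in normalised reads and ratios on the log2 scale, so the share flagged depends on the scale. On the log2 scale miR-223 deviated from the control mean by 1.73 in control replicate 1 and by -1.38 in control replicate 4. The members and ratios share reads, so these 6 are not independent. For miR-223, feed-deprived replicate 1 was at 3458 normalised reads where the other 5 held 595 to 963, and control replicate 1 was at 753 where the other 4 held 86.2 to 242. The same feed-deprived goat stood apart in the log2 ratio of miR-223 to miR-150, at -0.37 against -2.78 to -2.42, and of miR-223 to miR-342, at -1.18 against -3.50 to -2.99. Control replicate 2 was low in the log2 ratio of miR-142-3p to miR-142-5p, at -5.74 against -4.09 to -3.61. Control replicate 5 was low in the log2 ratio of miR-150 to miR-342, at -1.55 against -0.78 to -0.56. The cause of these gaps was not tested.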

How the results depend on the processing

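miR-142-5p no longer passed in limma without a filter (log2 fold change 0.79, adjusted p = 0.055), with means of at least 10 CPM only (0.79, 0.053), with upper-quartile factors (0.61, 0.095), without a variance trend (0.79, 0.099) and without replicate 1 of both groups (0.85, 0.073), and ran from 0.70 to 0.85 without 1 goat. miR-223 passed with library totals (2.28, limma adjusted p = 0.039) and in DESeq2 (2.04), and ran from 1.76 to 2.55 without 1 goat. It also passed without replicate 1 of both groups (2.19), a setting added after the values were seen. miR-342 was -0.058 with upper-quartile factors. miR-142-3p ran from 0.66 to 1.29, miR-150 from 0.19 to 0.44 and miR-342 from 0.036 to 0.19 without 1 goat. Of the tested miRNAs 0 were called higher in limma with means of at least 10 CPM only (23 in either direction at an unadjusted p under 0.05, and DESeq2 on the usual filter had 9), 7 with library totals, 9 in DESeq2, and 1 to 4 without 1 goat. Called lower was 1 with library totals, upper-quartile factors or voom, and 0 to 1 without 1 goat.

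Without replicate 1 of both groups, a setting added after the values were seen, 3 ratios passed the exact permutation test. They were miR-223 over miR-150 (1.84), miR-223 over miR-342 (2.18) and miR-142-5p over miR-342 (0.83). Each had an exact permutation p of 0.0079, the smallest those splits allow. Control replicate 1 was the only control in the feed-deprived range of these ratios, so without it the groups had to separate. These passes are therefore no separate support. Without 1 goat the differences of these 3 ratios ran from 1.39 to 2.21, 1.64 to 2.52 and 0.52 to 0.82. miR-142-5p over miR-150 ran from 0.27 to 0.66, miR-142-3p over miR-150 from 0.26 to 1.07, miR-142-3p over miR-342 from 0.53 to 1.17, and miR-142-3p over miR-142-5p from -0.12 to 0.45. The causes were not tested. Pseudocounts changed no call of a member or ratio. TMM factors and edgeR, run over the 360 tested miRNAs and not on the ratios, changed no call of a member. Counting intervals cover counting error only, and what more depth would change was not tested. No paired analysis was made, since each library came from a separate goat and the labels pair none of them.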
